A study of Mus musculus with 4 samples.

Results

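The genes described here encode 10 core transcription factors of mouse embryonic stem cells: Pou5f1, Sox2, Nanog, Klf4, Klf2, Klf5, Esrrb, Tfcp2l1, Tbx3 and Zfp42. They were taken by gene symbol, not by any measured value, and each symbol matched 1 row of a table of 46406 rows. The table holds ATAC-seq values, in which the transposase Tn5 cuts and tags open DNA so that reads collect where chromatin is accessible. The cells were J1, a mouse embryonic stem cell line grown without feeder cells, with 2 libraries labelled as wild-type control and 2 from cells overexpressing Zscan4 (Zscan4 OE), all 4 with the same passage entry. Zscan4 is a zinc finger protein of the 2-cell embryo that also appears briefly in a few stem cells of a culture. The promoter and vector of the transgene, and whether the cells were 1 clone or a pool, are not stated in the labels. The labels also do not say that the libraries of one group were separate cultures, and the p-values below reflect library-to-library spread, which may be technical.

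Pou5f1 (OCT4) and Sox2 bind DNA together at a joined site and, with Nanog, form the centre of the network that keeps stem cells undifferentiated. The Krüppel-like factors Klf2, Klf4 and Klf5, with Esrrb, Tfcp2l1 and Tbx3, belong to the naive state and connect that centre to signals such as leukaemia inhibitory factor (LIF). Zfp42, also called Rex1, is a zinc finger gene used as a marker of that state. The comparison asks whether chromatin over these genes was more or less open in cells with extra Zscan4.

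Each row counts reads over a feature shorter than the gene. The lengths recovered from the values ran from 1847 bp for Klf2 to 9438 bp for Tfcp2l1, that is from 3.77% of the annotated span of Esrrb to 83.4% of that of Sox2, a gene without introns. The values are therefore taken to describe exons. The bases before the start and distal enhancers lie outside them, while the bases just after the start belong to the first exon. How much opening at the start adds to the level of a gene was not tested. Levels are given as RPKM, reads per kilobase of feature and per 1000000 library reads, after each value was set on the total of its own library (see the account of the processing). Depth ranged from 1061428 reads (control 1) to 4899494 (Zscan4 OE 2), with control 2 at 2903602 and Zscan4 OE 1 at 3605774, and 9.38% to 12.8% of reads fell on features. The 10 genes held 808 reads in all, from 22 for Sox2 to 132 for Tbx3, while the median tested gene had 15. In such bulk libraries fewer cells with open chromatin and less opening per cell cannot be told apart.

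The promoters of 8 of the genes had an entry in the RefSeq tables (GRCm38.p6); Klf5 and Tbx3 are named only. The 250 bases before the start given there were searched on both strands for short cores of the factors' own sites. The POU core TTTGCAT was present in the promoters of Sox2, Nanog and Zfp42, 3 of 8, against 4.07% of 27025 promoters. Nanog also held the SOX core ACAATG beside it, found in 1 of 8 and in 10.9% of all. TGCACAC, the element that Zscan4 is known to bind, was present at Esrrb alone among the 8, and in 3.52% of all. The GC box GGGCGG occurred in 5 of 8 and in 33.0% of all, and the CACC box GGGTGG in 4 of 8 and 27.6%, and no 2 different motifs overlapped, although copies of the same box did at Pou5f1 and Klf4. The cores AAGGTCA (ESRRB), GGTGTGA (T-box) and AAGATGG (YY1 and ZFP42) were in 0 of 8, and in 4.04%, 3.31% and 4.51% of all. A match describes the letters only, and the exon rows do not measure these bases.

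The 3 promoters with the POU core are shown because they carry the site of the network's own centre; capitals mark TTTGCAT, or its reverse complement in Sox2, and in Nanog also ACAATG.
Zfp42, chr8:43307010-43307259, minus strand: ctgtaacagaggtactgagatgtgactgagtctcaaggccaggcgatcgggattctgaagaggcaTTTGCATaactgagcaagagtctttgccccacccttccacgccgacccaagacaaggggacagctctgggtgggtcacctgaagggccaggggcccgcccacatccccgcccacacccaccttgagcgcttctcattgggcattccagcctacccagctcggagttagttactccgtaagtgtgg
Nanog, chr6:122707239-122707488, plus strand: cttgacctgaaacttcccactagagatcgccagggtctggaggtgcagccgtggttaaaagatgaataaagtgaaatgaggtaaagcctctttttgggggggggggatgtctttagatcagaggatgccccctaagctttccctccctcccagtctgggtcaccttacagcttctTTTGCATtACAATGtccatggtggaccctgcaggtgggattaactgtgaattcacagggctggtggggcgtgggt
Sox2, chr3:34649745-34649994, plus strand: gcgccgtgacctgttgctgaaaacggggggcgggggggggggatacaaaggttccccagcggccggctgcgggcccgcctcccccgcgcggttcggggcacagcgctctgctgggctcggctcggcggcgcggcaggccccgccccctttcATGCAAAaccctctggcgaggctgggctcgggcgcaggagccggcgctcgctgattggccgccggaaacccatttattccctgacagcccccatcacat

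Esrrb is shown for the Zscan4 element, in capitals, and Klf2, with Zfp42 the gene of highest exon level, for its pair of GC boxes, in capitals.
Esrrb, chr12:86360867-86361116, plus strand: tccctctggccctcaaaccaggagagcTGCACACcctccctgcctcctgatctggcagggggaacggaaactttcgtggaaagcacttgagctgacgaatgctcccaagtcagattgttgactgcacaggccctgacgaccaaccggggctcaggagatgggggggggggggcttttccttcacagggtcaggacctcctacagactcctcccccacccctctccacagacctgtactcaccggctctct
Klf2, chr8:72318812-72319061, plus strand: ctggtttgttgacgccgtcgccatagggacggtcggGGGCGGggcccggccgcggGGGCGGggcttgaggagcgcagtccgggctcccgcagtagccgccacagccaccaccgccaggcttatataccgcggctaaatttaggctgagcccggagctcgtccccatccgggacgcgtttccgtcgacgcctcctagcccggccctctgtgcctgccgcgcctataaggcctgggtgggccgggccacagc

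Base composition of these promoters ranged widely. GC content was 72.0% at Sox2, 71.2% at Klf2 and 74.0% at Klf4, above that of 93.5%, 92.6% and 95.4% of all promoters. It was 52.0% at Nanog, near the middle of all promoters (percentile 48.9), and 58.4% at Zfp42 (percentile 68.2). The Nanog promoter had 3 CpG dinucleotides and the Klf4 promoter 32.

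Among the central factors, Pou5f1 (chromosome 17, 35506032 to 35510777, GRCm38) had 9, 8, 22 and 12 reads (control 1, control 2, Zscan4 OE 1 and Zscan4 OE 2, the order used throughout), which is 3.77, 1.23, 2.71 and 1.09 RPKM. Library 1 was high and library 2 low in both groups, and the groups overlapped. The group means were 2.50 ± 1.80 and 1.90 ± 1.15 RPKM (SD, n = 2), a log2 difference of −0.31 (SE 0.778, limma adjusted p = 0.969). Sox2 (chromosome 3, 34649995 to 34652461), the partner of Pou5f1, was the least covered gene, with 2, 5, 9 and 6 reads. Its levels of 0.916, 0.837, 1.21 and 0.595 RPKM gave means of 0.877 ± 0.0558 and 0.904 ± 0.437 RPKM (SD, n = 2). The difference of log2 values was −0.03 (95% interval −1.55 to 1.49), of opposite sign to that of the means, so Sox2 has no direction here although it is counted below as negative. The 2 reads in control 1 leave a counting interval of 0.111 to 3.31 RPKM around its value. Nanog (chromosome 6, 122707489 to 122714633), a homeobox factor, had 3, 6, 18 and 12 reads, or 1.26, 0.922, 2.23 and 1.09 RPKM. Zscan4 OE 1 was high and the other Zscan4 OE library lay between the controls, so the groups overlapped at means of 1.09 ± 0.240 and 1.66 ± 0.802 RPKM (SD, n = 2; log2 difference 0.50, SE 0.553, limma adjusted p = 0.869).

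The Krüppel-like factor genes all had lower means in Zscan4 OE, and none of them passed the test. Klf2 (chromosome 8, 72319062 to 72321654), the most open of them, had 14, 19, 34 and 23 reads and 7.14, 3.54, 5.11 and 2.54 RPKM. The lowest value was in Zscan4 OE 2 and the highest in control 1, with the other pair crossed between them. Its means of 5.34 ± 2.54 and 3.82 ± 1.81 RPKM (SD, n = 2) differed 0.716-fold (limma adjusted p = 0.893). Klf4 (chromosome 4, 55527137 to 55532475), a reprogramming factor, had 7, 14, 21 and 12 reads and 2.16, 1.58, 1.91 and 0.803 RPKM. Here Zscan4 OE 2 alone was low, and the log2 difference was −0.53 (SE 0.585, limma adjusted p = 0.869). Klf5 (chromosome 14, 99298691 to 99313412), which also acts in the trophectoderm, had 13, 11, 40 and 15 reads and 2.35, 0.728, 2.13 and 0.589 RPKM. Its 2 libraries within a group differed 3.23-fold in controls and 3.62-fold in Zscan4 OE, while its group means of 1.54 ± 1.15 and 1.36 ± 1.09 RPKM (SD, n = 2) differed 0.883-fold (limma adjusted p = 0.988).

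Esrrb, Tfcp2l1 and Tbx3, the other naive-state regulators, had higher means in Zscan4 OE, and none of them passed the test. Esrrb (chromosome 12, 86361117 to 86521628), an orphan nuclear receptor, had 10, 16, 43 and 35 reads and 1.56, 0.911, 1.97 and 1.18 RPKM, with the values of the groups interleaved. Its log2 difference was 0.33 (SE 0.539, limma adjusted p = 0.927). Tfcp2l1 (chromosome 1, 118627923 to 118685168), a grainyhead-family factor downstream of LIF, had 8, 26, 35 and 50 reads and 0.799, 0.949, 1.03 and 1.08 RPKM. Both Zscan4 OE values lay above both controls, by little: the means were 0.874 ± 0.106 and 1.05 ± 0.0373 RPKM (SD, n = 2), and the counting intervals of all 4 libraries overlapped. The log2 difference of 0.25 had an interval of −1.0 to 1.5 (limma adjusted p = 0.944) and was −0.02 when each library was centred on its median gene. Tbx3 (chromosome 5, 119670534 to 119684724), a T-box factor, had 16, 14, 53 and 49 reads and 2.28, 0.728, 2.22 and 1.51 RPKM. Control 2 was the low library, and Zscan4 OE lay between the controls (log2 difference 0.46, SE 0.680, limma adjusted p = 0.908).

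Zfp42 (chromosome 8, 43295067 to 43307009) had the largest difference of the 10 genes. It had 9, 11, 55 and 43 reads, or 4.51, 2.01, 8.11 and 4.67 RPKM. Both Zscan4 OE libraries were above both controls, the lower of them only just above control 1. The means of 3.26 ± 1.76 and 6.39 ± 2.43 RPKM (SD, n = 2) differed 1.96-fold. The log2 difference was 1.0 (SE 0.634, 95% interval −0.69 to 2.69, limma adjusted p = 0.869), and by p it ranked 7400 among the tested genes. The counting interval of control 1, 2.06 to 8.56 RPKM, included both Zscan4 OE values. That of control 2, 1.01 to 3.60 RPKM, included neither, and lay apart from the interval of Zscan4 OE 1, 6.11 to 10.6 RPKM.

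**Figure D1:**
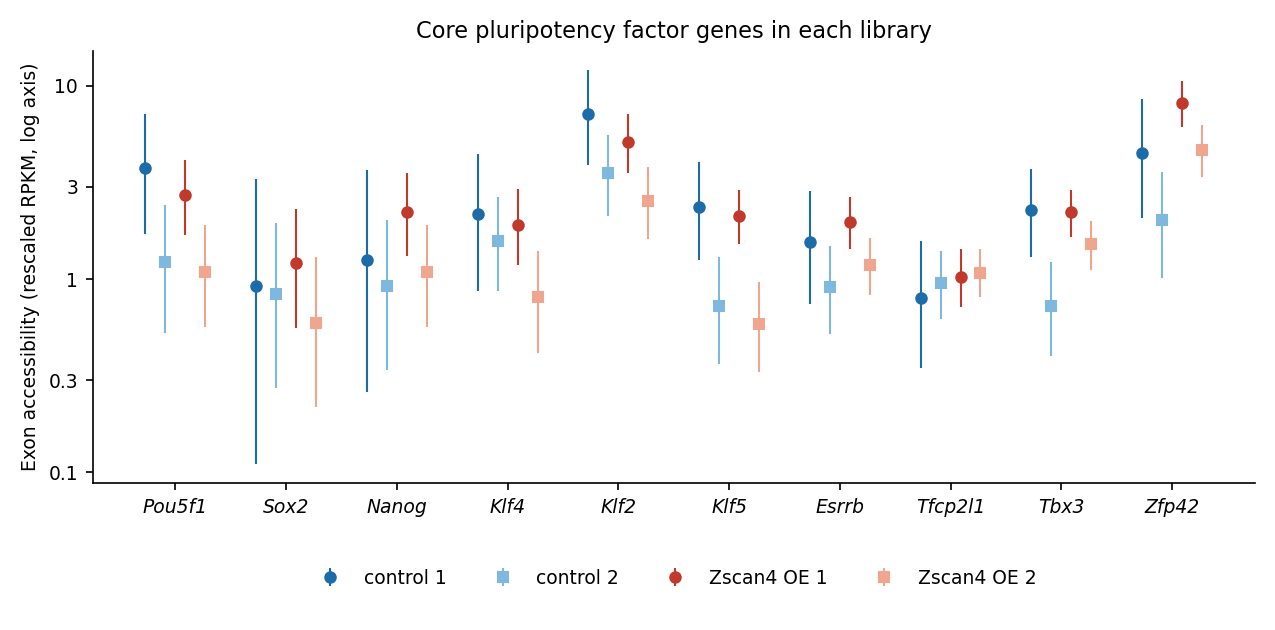
Rescaled RPKM (log axis) of each of the 10 genes in controls 1 and 2 (blue) and Zscan4 OE 1 and 2 (red), with circles for library 1 and squares for library 2 of each group and bars for exact Poisson 95% intervals. Zfp42 and Klf2 stand highest in each library, and circles lie above squares for most genes.

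By mean over the 4 libraries the order of levels was Zfp42 (4.82 RPKM), Klf2 (4.58), Pou5f1 (2.20), Tbx3 (1.68), Klf4 (1.61), Klf5 (1.45), Esrrb (1.41), Nanog (1.38), Tfcp2l1 (0.964) and Sox2 (0.890). Klf2 was above the next gene, Pou5f1, in 4 of 4 libraries, by 2.38 RPKM on average against SDs of 2.01 and 1.28 over libraries. Every other step in the order was smaller than the SD over libraries of both genes, except that from Nanog to Tfcp2l1, whose 0.411 RPKM exceeded only the SD of Tfcp2l1 (0.123). Zfp42 and Klf2 ranked first in 2 libraries each, Klf2 in the controls and Zfp42 in Zscan4 OE. Among the 19012 genes with 20 reads or more, the mean of 8 of the 10 was above the median gene. Zfp42 and Klf2 were at percentiles 97.6 and 97.4 and Pou5f1 at 88.0, while Tfcp2l1 and Sox2 were below the middle at 44.2 and 38.0. Such ranks varied by library: Tfcp2l1 was at percentiles 34.7, 55.5, 41.6 and 61.4, and Klf5 at 82.9, 38.9, 80.2 and 18.2.

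No change was detected in any of the 10 genes. With limma on log2(RPKM + 0.1), 0 of 10 were called higher and 0 lower at an adjusted p under 0.05, and 0% of the 42989 tested genes were called. Before adjustment, 0 of 10 core factors had p under 0.05, compared with 6.42% of all genes. With voom and with quantile normalization 1 of 10, Zfp42, was under 0.05 before adjustment, against 976 of 19012 and 2571 of 42989 tested genes. After adjustment 0 of 10 were called with either. There were 5 positive and 5 negative differences with a median of 0.11, where all tested genes had a median of 0.28 and those with 20 reads or more 0.14. Only Tfcp2l1 and Zfp42, 2 of 10, had groups that did not overlap with Zscan4 OE higher, against 20% of genes with 20 reads or more. With Zscan4 OE lower there were 0 of 10, against 10.1% of all tested genes. The 95% intervals of single genes reached 1.03 to 2.69 upward and −0.69 to −2.56 downward on the log2 scale. They give the differences that were not excluded for a single gene. With 2 libraries a group and adjustment over all genes, the test can miss changes larger than these. In simulated counts with these library totals it called 0% of 100 genes changed 4-fold and 0% of 100 changed 16-fold. Testing only genes with 20 reads or more called 0% and 21% of them. The simulated spread between libraries was assumed, not estimated from these data, and held no difference shared by the genes of a library. These shares hold for that setting only. The direction of 7 genes turned when 1 library was left out. Without Zscan4 OE 2 all 10 differences were positive, without control 1 all but that of Klf4, without control 2 only 3, and without Zscan4 OE 1 only 4. Zfp42, Nanog and Tfcp2l1 stayed positive in these 4 fits.

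The values as deposited would have read otherwise. In them 9 of the 10 core factors, all but Klf4, had both Zscan4 OE libraries above both controls, against 64.0% of genes with 20 reads or more. Tfcp2l1 stood at 0.292, 1.14, 1.66 and 4.99, a ratio of means of 4.64, and Nanog at 0.533, 0.921, 3.33 and 2.40, a ratio of 3.94. After rescaling these ratios were 1.21 and 1.52. Zfp42 and Klf4 had the same values before and after, since their rows happened to carry each library's own total. Pou5f1, Sox2, Klf2 and Klf5 had positive log2 differences as deposited, 0.77, 0.95, 1.15 and 0.83, and negative ones after rescaling.

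**Figure D2:**
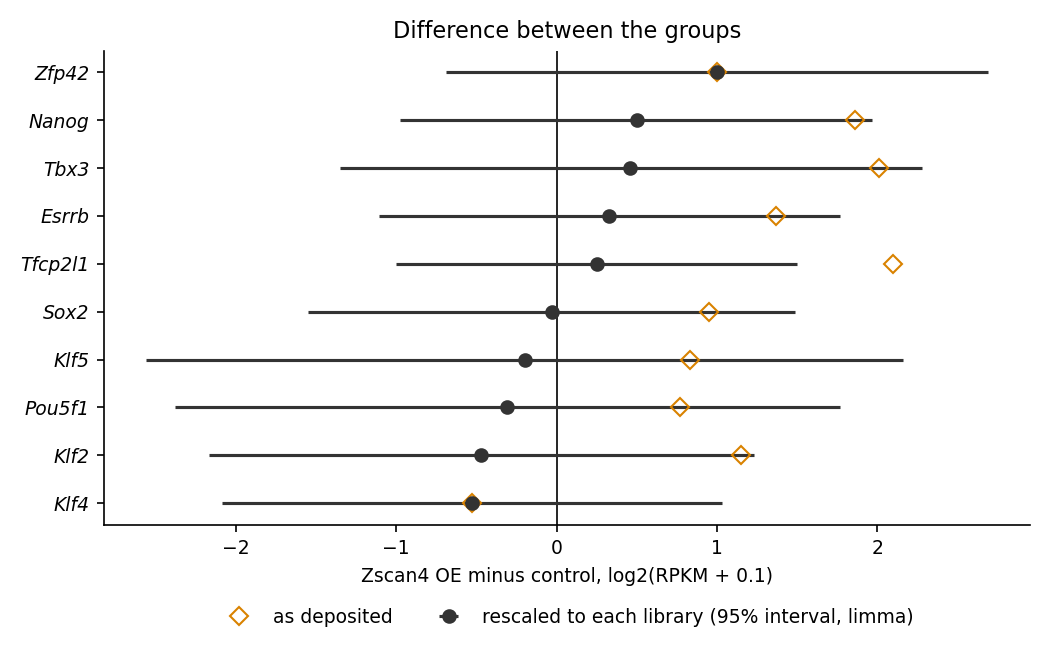
Difference between Zscan4 OE and control for each gene on the log2(RPKM + 0.1) scale, with filled points and bars for rescaled values and their limma 95% intervals, and open diamonds for the values as deposited. Each interval includes 0, and the diamonds lie to the right of the points except for Zfp42 and Klf4, where they coincide.

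The 2 libraries of a group differed in one direction for most of these genes. In 9 of 10 genes, all but Tfcp2l1, control 1 was above control 2 and Zscan4 OE 1 was also above Zscan4 OE 2, against 49.3% of genes with 20 reads or more. The median ratio of library 1 to library 2 was 1.86 in controls and 2.02 in Zscan4 OE, where genes with 20 reads or more had 1.31 and 1.27. The share of reads on features moved with it, 1.32 times higher in control 1 than in control 2 and 1.29 times higher in Zscan4 OE 1 than in Zscan4 OE 2. Divided by feature reads in place of library totals, 8 of 10 genes had library 1 above library 2 in both groups, with median ratios of 1.42 and 1.57. The share and ratios of all genes were not computed on that scale, and the 49.3% is not a background for it. Klf5 and Pou5f1 had the largest ratios in Zscan4 OE, 3.62 and 2.49, and ratios of 3.23 and 3.08 in controls, where Tbx3 had 3.13. Taken gene by gene, the Poisson intervals of the 2 libraries were separate for 1 gene in the controls (Tbx3) and 1 in Zscan4 OE (Klf5). Overlap of 2 such intervals does not place a difference within counting error. The part of library preparation or of culture in this was not tested, and the numbers 1 and 2 are names that the labels do not describe as pairs.

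**Figure D3:**
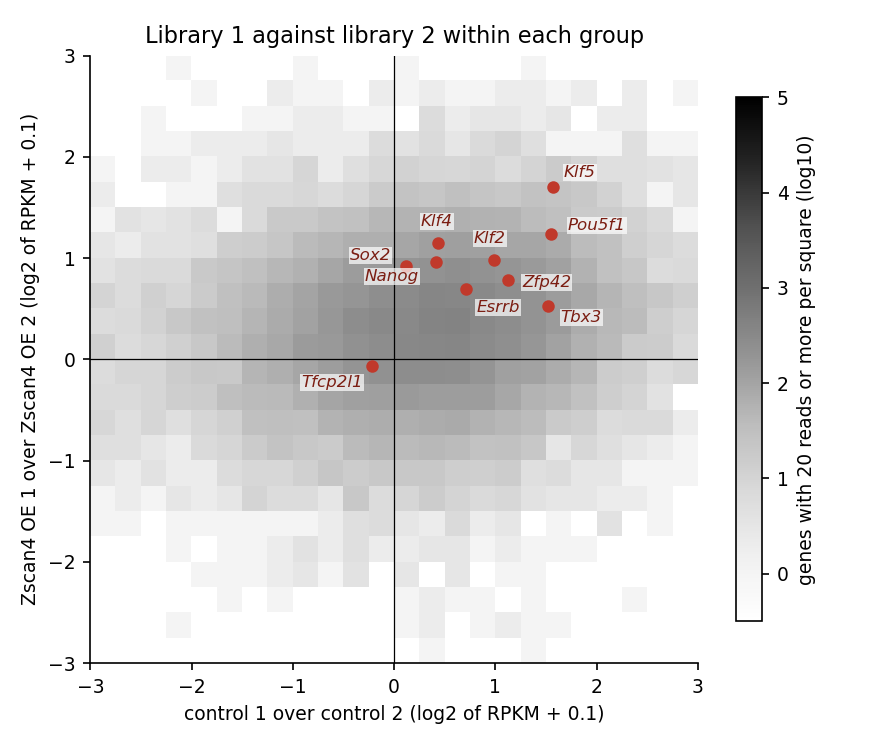
Ratio of library 1 to library 2 in controls (horizontal) and in Zscan4 OE (vertical), as log2 of RPKM + 0.1, with red points for the 10 genes over grey squares that count the genes with 20 reads or more; squares beyond the axes are not drawn. All points but Tfcp2l1 lie in the upper right part.

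Summed over the 10 genes, the reads made up 85.7 (95% interval 69.0 to 105) and 44.8 (37.4 to 53.2) per 1000000 library reads in controls 1 and 2. In Zscan4 OE 1 and 2 they made up 91.5 (81.9 to 102) and 52.5 (46.2 to 59.3). The groups overlapped, with means of 65.3 ± 29.0 and 72.0 ± 27.6 (SD, n = 2) and a ratio of 1.10. Zfp42 carried most of that excess, and without it the ratio was 1.01. Leaving out control 2 or Zscan4 OE 1 turned the ratio to 0.840 and 0.804.

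Genes around the core factors gave no call either. Of 12 other regulators of the naive network, such as Nr5a2 and Sall4, 14 genes of LIF and bone morphogenetic protein (BMP) signalling, which feed into the network, 12 of its targets, 13 genes of the primed state or of exit from naivety, and 31 paralogs of the core factors, all were tested, and 0 were called in either direction. Their median log2 differences were −0.02, 0.09, 0.32, 0.17 and −0.02. Non-overlapping groups, found in 19.6% of all tested genes with Zscan4 OE higher and 10.1% lower, occurred in 2, 3, 3, 1 and 3 genes with Zscan4 OE higher and in 3, 2, 1, 2 and 6 lower. At the ends of these lists stood Tdgf1, a Nodal co-receptor, with 2, 11, 25 and 30 reads (0.719, 1.44, 2.64 and 2.34 RPKM) and Nr0b1, a nuclear receptor that binds OCT4, with 5, 6, 6 and 4 reads (2.61, 1.14, 0.920 and 0.452 RPKM). Their log2 differences were 1.20 (SE 0.517) and −1.29 (SE 0.655), each with limma adjusted p = 0.869. Jak2, the kinase, and Bmp4, the ligand, marked the ends of the signalling list at 1.15 and −1.02. Lefty2, a Nodal antagonist, was the lowest target at −0.68. Among primed genes Tcf7l1, a repressor of the network, was at 0.58 and Otx2 at −0.97, and Nr5a2, another nuclear receptor, was the highest naive regulator at 0.51. Of the paralogs, Klf10 was highest at 0.70 and Tbx2 lowest at −0.86. Every one of these 10 had a limma adjusted p between 0.869 and 0.878.

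As a description, library 1 was above library 2 in both groups for 6 of 11 naive regulators with 20 reads or more, 10 of 13 signalling genes, 5 of 12 targets, 8 of 13 primed genes and 18 of 27 paralogs. As to the cell type on the labels, the other stem cell genes Utf1 and Fgf4 had reads in all 4 libraries, with means of 2.89 and 2.06 RPKM. Dppa5a had 0, 3, 12 and 10 reads, so control 1 held none. The median level of the 10 core factors was 1.53 RPKM, against 0.714 for 14 fibroblast markers, 0.913 for 9 primitive endoderm markers and 1.0 for 9 trophectoderm markers. The gap was widest in the libraries numbered 1. By library the core factors had medians of 2.22, 0.935, 2.18 and 1.09 RPKM. Primitive endoderm markers had 1.02, 0.794, 0.752 and 0.820, and trophectoderm markers 0.962, 0.749, 0.991 and 1.03. None of these marker genes was at 0 in all libraries, and single ones such as Sox17 (2.63 RPKM) exceeded most core factors, so exon accessibility separated the lists only in part. Summed marker reads ran from 60.3 to 77.3 per 1000000 library reads in the controls and 66.1 to 87.1 in Zscan4 OE for fibroblasts. They ran from 57.5 to 67.8 and 50 to 52.7 for primitive endoderm, and from 20 to 28.3 and 24.9 to 29.1 for trophectoderm. The part of such cells in the values of the core factors was not tested.

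**Figure D4:**
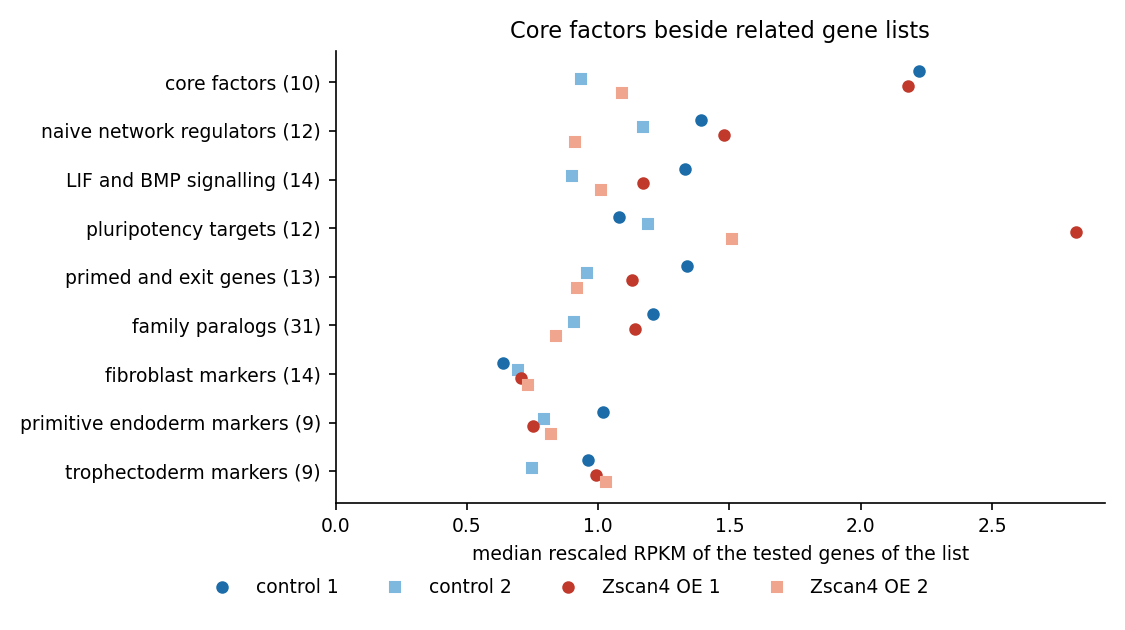
Median rescaled RPKM of each gene list in the 4 libraries (number of tested genes in brackets; blue for controls, red for Zscan4 OE, circles for library 1 and squares for library 2). The core factors lie at 2.22 and 2.18 in the 2 libraries numbered 1 and at 0.935 and 1.09 in those numbered 2. The fibroblast markers lie between 0.637 and 0.731 and the trophectoderm markers between 0.749 and 1.03.

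Copies and overlapping transcripts could share reads with some members. Related rows of the table included Gm5712, an annotated copy of Pou5f1, with 2, 3, 6 and 3 reads, and Gm6539, another, with 1, 0, 4 and 4. The further copies Gm2071, Gm21054 and Gm18927 each had 0 reads in the controls and 1 in each Zscan4 OE library. Nanog-ps2 had 0, 3, 1 and 3 reads and Zfp42-ps1 1 read, in control 2. The handling of reads that match several places is not stated in the labels, so small numbers of reads may have moved between Pou5f1, Nanog or Zfp42 and these copies. Sox2ot, the long transcript around Sox2, had 1.06, 0.624, 0.694 and 0.880 RPKM, and the Tbx3 antisense row Tbx3os1 had 0.892, 0.870, 1.75 and 0.516. Tbx3os2, also antisense to Tbx3, had 7, 1, 4 and 10 reads, or 4.90, 0.256, 0.825 and 1.52 RPKM. The groups overlapped for each of these rows.

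The nearest protein-coding genes on either side, chosen after the results were known, had differences in both directions. Of 20 such neighbours 4 had non-overlapping groups with Zscan4 OE higher and 4 lower, and 13 had a positive difference. Over all tested genes 19.6% were higher and 10.1% lower without overlap, and 62.0% had a positive difference. On either side of Zfp42, Triml2 had 2.81, 1.21, 2.25 and 1.49 RPKM and Adam26b 0, 1, 2 and 0 reads, and their log2 differences were −0.01 and 0.27. Tcf19, 1953 bases from the end of Pou5f1, had 3, 11, 21 and 17 reads, or 1.59, 2.13, 3.27 and 1.95 RPKM. Control 1 was not the higher control there, but its 3 reads are too few to tell whether Tcf19 shared the high library 1 of Pou5f1. Slc2a3, a glucose transporter gene 13176 bases from Nanog, had 2.73, 0.856, 2.45 and 1.69 RPKM.

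The average profile of the 10 genes over the 4 libraries (2.16, 1.18, 2.38 and 1.24 RPKM, from mean log2 values) was most like those of Thg1l, Dkc1 and Gmip among 19002 other genes with 20 reads or more. Their Euclidean distances on the log2 scale were 0.0538, 0.0869 and 0.187. Dkc1, for example, had 2.06, 1.17, 2.36 and 1.29 RPKM. Within the 10, Nanog and Esrrb were the closest pair at 0.347, and Sox2 and Tfcp2l1 followed among mutual neighbours at 0.831. Klf2 and Zfp42 were each other's nearest at 1.48, set apart by their high levels. With 4 libraries these distances describe level and library spread only.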

How the data were processed

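The authors deposited 1 table of RPKM values per gene and library; the submitters' processing notes list the build mm10 and the tools featureCounts, Bowtie2 and Trimmomatic. Their versions, read filters, any Tn5 shift and the gene annotation are not stated there. The members and gene lists were chosen with earlier results of these data known.

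Each deposited RPKM is a whole number of reads over a feature length and 1 of 8 library totals, which take turns from row to row. Short RNA genes whose lengths are known gave the totals. Exactly 1 rotation turned the values into whole reads in each of the 38361 rows that had at least 2 values above 0, within the 9 decimals or 10 significant digits printed. Totals were placed on libraries by the rotation order that made the share of reads on features most alike (highest over lowest 1.365; the 7 others gave 4.17 to 10.15). The recovery of totals, rotations and lengths was tested on simulated data, with extra short RNA rows made for the totals. All 8 totals were found. In rows with 2 or more values, 100% of rotations and 96.13% of lengths were right. The placement of totals on libraries was not part of that test. A factor shared by all of a row's reads and its length cannot be seen.

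Groups follow the sample titles. Differences were tested with limma 3.58.1 (R 4.3.3), using an eBayes trend on log2(rescaled RPKM + 0.1), rows with mean RPKM of at least 0.1, no covariate, both directions, Benjamini-Hochberg over all tested rows, threshold 0.05. A log2 difference on this scale understates changes of low genes. Counting intervals are exact Poisson 95% intervals and cover counting error only. For a count of 0 a limit of 3 reads was set, which is not the upper end of such an interval. It equals 2.83, 1.03, 0.832 and 0.612 reads per 1000000 in the 4 libraries. Named genes are the 10 members, the highest and lowest statistic of 5 related lists, the 3 most similar profiles and each member's nearest member; flanking genes, markers and copies were added. Alternatives were other pseudocounts, filters and scalings, voom, a replicate block and leaving out each library.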

Additional observations from a re-analysis of the deposited data

How the results depend on the processing

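The 14 alternatives also called 0 of the 10 core factors, with lowest adjusted p from 0.334 (as deposited) to 0.999. With 22 to 132 reads per gene and 2 libraries a group the adjusted test can miss large changes, so these counts of 0 say nothing about stability. Before adjustment Zfp42 was under 0.05 with voom, quantile normalization and the replicate block, and 2 core factors, Nanog and Tbx3, were as deposited. Among all tested genes 976 of 19012 were under 0.05 with voom and 2571 of 42989 with quantile normalization. With the block 2419 of 42989 were, and as deposited 6242 of 42989. The 4 fits that leave out a library have 1 library in a group, which is assumed to vary like the other group. Over all genes the main setting called 0 (2762 at an unadjusted p under 0.05, limma). Genes with 20 reads or more gave 5 calls, voom gave 1, and leaving out a library gave 0 to 4536; the latter came from leaving out Zscan4 OE 1, and 3891 from leaving out Zscan4 OE 2. The cause was not tested. As deposited, differences turned for Klf5 (0.83), Pou5f1 (0.77), Klf2 (1.15) and Sox2 (0.95), by construction through the totals used. Sox2 was at 0.00 with a pseudocount of 1, and Tfcp2l1 at −0.02 with libraries centred on their medians, a setting that moves the median gene from 0.28 to 0. Quantile normalization, voom, no filter, the 20-read filter, a pseudocount of 0.01 and scaling by feature reads turned no direction; the last does not depend on which total belongs to which library. Leaving out a library gave −1.05 to 0.65 for Klf5, −1.08 to 0.46 for Pou5f1, −0.97 to 0.03 for Klf2, −0.49 to 0.43 for Sox2, −0.30 to 1.22 for Tbx3, −0.03 to 0.69 for Esrrb and −1.11 to 0.04 for Klf4. It gave 0.44 to 1.56 for Zfp42, 0.02 to 0.98 for Nanog and 0.14 to 0.36 for Tfcp2l1, and 0.804 to 1.61 for the ratio of summed reads. With the replicate number as a block 0 core factors and 0 genes were called. The labels do not say that equal numbers were paired, and deviations of same-numbered libraries correlated at 0.13 over genes with 20 reads or more and 0.04 over all tested genes.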
